A study of Homo sapiens with 6 samples.

Results

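Genes of the caspase family were examined in PC-3, a human prostate carcinoma cell line that grows without androgen. The members were 8 caspase genes, CASP1, CASP2, CASP4, CASP5, CASP6, CASP8, CASP9 and CASP10, chosen because the platform's annotation gives their probesets a single gene symbol that is one of these names. They are 8 of 18404 genes measured, and each of the 8 had 1 probeset. The vehicle group was PC-3 cells given ethanol at 0.1% and the menthol group was PC-3 cells given menthol dissolved in the same vehicle, with 3 arrays each. Both groups were grown in DMEM with 10% fetal bovine serum. No source used here gives the menthol dose or the treatment time, and all arrays come from 1 cell line. Executioner caspases other than CASP6 are not analysed here.

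Caspases are proteases made as inactive precursors that cut their targets after aspartate. Initiator caspases are switched on by crowding on a platform: caspase-8 and caspase-10 on death receptors through the adaptor FADD, caspase-9 on the apoptosome of APAF1 and cytochrome c, and caspase-2 on the PIDDosome of PIDD1 and CRADD. They activate executioner caspases, such as caspase-6, which dismantle the cell. The inflammatory caspases 1, 4 and 5 instead act downstream of inflammasome sensors or bacterial lipopolysaccharide, and cut gasdermin D and, for caspase-1, the precursors of interleukin-1 beta and interleukin-18. The arrays measure RNA of these genes and not protease activity.

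The authors' table holds linear intensities, with array medians between 47.4 and 49.1 units, and the values given here are log2 of them unless stated. Genes were divided by mean intensity into 4 brightness groups of 4601 genes each, from the dimmest to the brightest. The epithelial and PC-3 markers KRT8, KRT18, KRT19, EPCAM, CDH1, VIM and CD44 all lay in the brightest group, with mean log2 intensities of 9.10 to 11.43. With menthol 5 of these 7 rose, KRT19 by 0.97, KRT18 by 0.87, CDH1 by 0.78, EPCAM by 0.69 and KRT8 by 0.56, while VIM fell by 0.42 and CD44 did not pass. Each of these 5 rises was larger than the rise of any caspase gene. The fall of CASP10 given below was larger in size than the rises of CDH1, EPCAM and KRT8. The summed linear intensity of the 7 markers was 9803 to 10353 with vehicle and 13785 to 14010 with menthol. The luminal markers KLK3, KLK2 and ACP3 lay between 3.91 and 5.34, and the leukocyte marker PTPRC was at 2.60 with vehicle and 2.69 with menthol. The median SD between arrays of a group was 0.08 with vehicle and 0.10 with menthol. The number of arrays limits the precision. The labels do not say that the arrays of a group came from separate cultures, so the p-values rest on a spread between samples that may be technical only.

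RefSeq promoter windows on build GRCh38.p14 matched 6 of the 8 members: CASP2, CASP4, CASP5, CASP6, CASP8 and CASP9. The 250 bases before the listed start are shown for 3 members that were higher with menthol, because they show how unlike the upstream sequences of these members are. CASP4 (chr11:104968575-104968824, minus strand) and CASP5 (chr11:105023169-105023418, minus strand) are neighbouring inflammatory caspase genes, and CASP9 (chr1:15524216-15524465, minus strand) is the apoptosome caspase. Capitals mark matches, on either strand, to the 7 motifs described after the sequences.
CASP4: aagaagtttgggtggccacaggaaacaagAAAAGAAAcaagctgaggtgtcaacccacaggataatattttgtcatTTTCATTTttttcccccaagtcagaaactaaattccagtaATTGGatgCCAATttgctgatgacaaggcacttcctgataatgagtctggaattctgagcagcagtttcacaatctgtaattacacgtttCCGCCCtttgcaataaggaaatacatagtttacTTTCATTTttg
CASP5: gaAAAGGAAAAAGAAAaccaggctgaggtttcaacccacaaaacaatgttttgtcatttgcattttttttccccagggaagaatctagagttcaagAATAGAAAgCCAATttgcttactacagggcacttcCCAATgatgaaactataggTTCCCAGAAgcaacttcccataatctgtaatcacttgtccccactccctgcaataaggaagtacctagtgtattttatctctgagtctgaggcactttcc
CASP9: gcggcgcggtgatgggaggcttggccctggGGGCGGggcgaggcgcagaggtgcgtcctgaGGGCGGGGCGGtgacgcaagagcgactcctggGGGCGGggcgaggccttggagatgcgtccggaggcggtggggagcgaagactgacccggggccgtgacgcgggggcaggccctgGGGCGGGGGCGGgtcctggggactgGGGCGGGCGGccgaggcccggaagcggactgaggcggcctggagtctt
In a global alignment the CASP4 and CASP5 windows were identical over 64.7% of the alignment, against 39.4% for CASP4 and CASP9. The other pairs of the 6 windows ran from 37.5% for CASP5 and CASP9 to 54.1% for CASP2 and CASP6. The level for unrelated windows was not computed. The windows of CASP4 and CASP5 held 2 and 0 CpG dinucleotides, and that of CASP9 held 29. CASP2 held 29, CASP6 held 26 and CASP8 held 6, while the median of 35116 windows was 11. Both CpG-poor and CpG-rich windows thus belonged to genes that rose with menthol, as given next. All 6 members with a window rose, and CASP10, the member that fell, had none. CpG content can therefore not be set against direction here. The GC-box letters GGGCGG, which overlap each other at places in CASP2 and CASP9, were found in the windows of CASP2, CASP4, CASP6, CASP8 and CASP9 and in 42.6% of all windows. The CCAAT letters were found in CASP2, CASP4 and CASP5 and in 32.0% of all windows. TTCNNNGAA (N is any base), the core of sites bound by STAT factors, occurred in CASP5 and CASP8 and in 6.57% of all windows. AANNGAAA, a core bound by interferon regulatory factors, occurred in CASP4 and CASP5, in each as 3 matches, and in 20.3% of all windows. In CASP5 the first 2 of these matches overlap. The TATA-box letters TATAAA (10.7% of all windows) were in none of the 6 windows of the caspase genes. Nor were the AP-1 letters TGANTCA (6.57%) and the E-box letters CACGTG (6.34%). Such matches are letters in a window and were not tested for binding.

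With menthol 7 of the 8 caspase genes were higher and, of the 8, CASP10 alone was lower. All 8 passed the threshold of an adjusted p under 0.05 in limma. They were chosen with earlier results of these data known. CASP14, a caspase gene outside the 8, was also lower, as given below. Of all 18404 genes, 29.1% passed in either direction, 14.6% higher and 14.5% lower. The 7 higher members rose by 0.33 to 0.49, or 1.26- to 1.41-fold, and CASP10 fell by 0.86, or 1.81-fold. In all 8 members the vehicle and menthol arrays did not overlap, which was so for 45.3% of all genes. The median log2 fold change was 0.38 over the 8 members and 0.03 over all genes. Only CASP10 of the 8 changed at least 1.5-fold, a size that 5.61% of all genes reached while passing the threshold, 2.62% as lower.

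**Figure D1:**
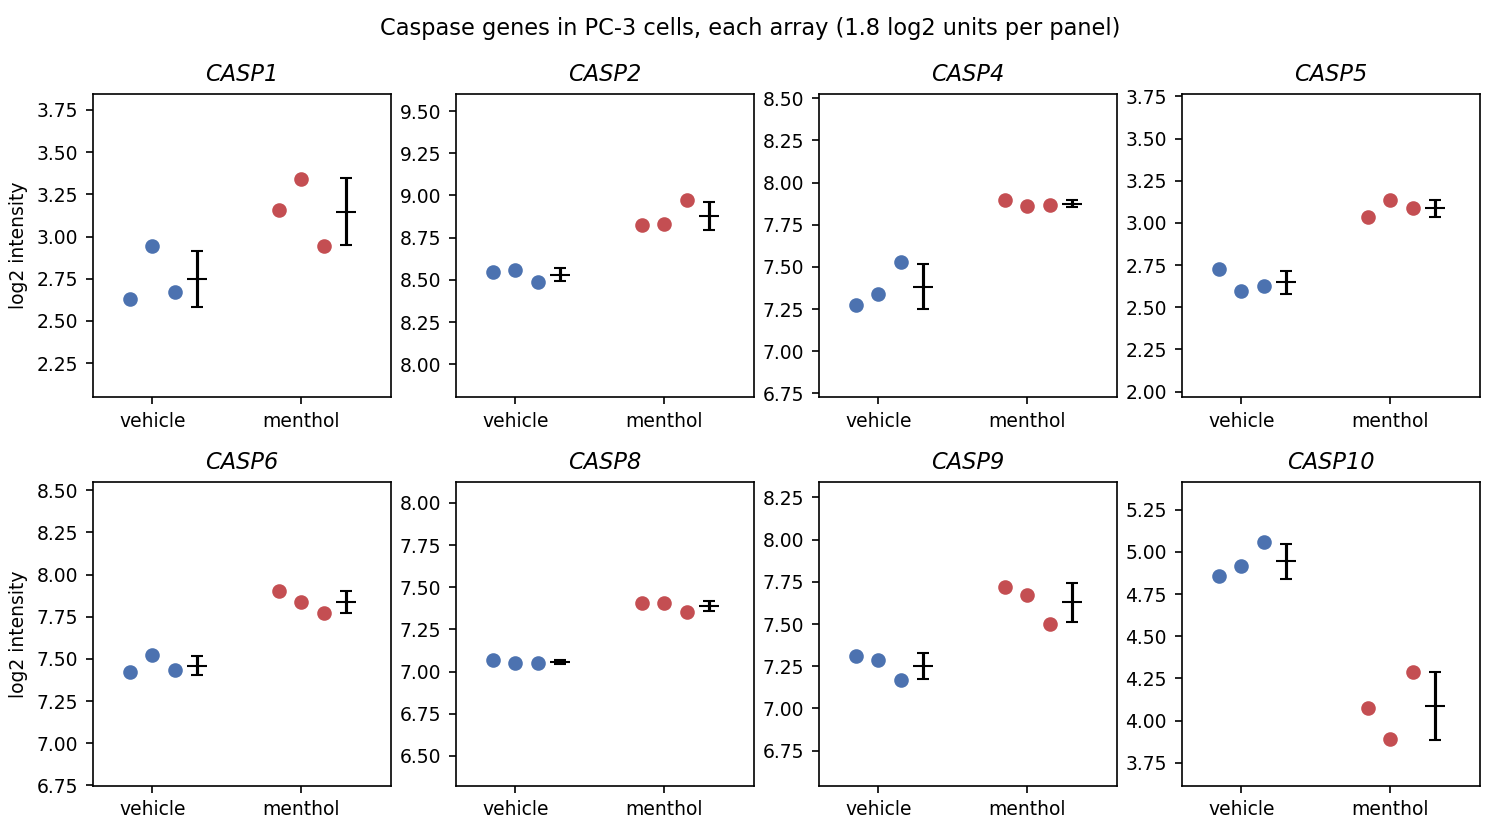
Log2 intensity of each caspase gene (y axis, 1.8 log2 units per panel) in the 3 vehicle arrays (blue) and 3 menthol arrays (red), with the group mean and SD in black. The menthol points lie above the vehicle points in 7 panels and below them in that of CASP10, and in CASP1 the groups nearly touch.

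Among the initiator caspases, CASP8 (probeset 8047419), the protease of the death receptor complex, read 7.07, 7.05 and 7.05 with vehicle and 7.41, 7.41 and 7.35 with menthol. The arrays of each group lay close together, and every menthol array was above every vehicle array. The rise was 0.33 ± 0.06 (SE, n = 3 per group; adjusted p = 0.00429). CASP10 (probeset 8047403), the closest relative of CASP8 and like it recruited by FADD, read 4.86, 4.92 and 5.06 with vehicle and 4.08, 3.89 and 4.29 with menthol. Its menthol arrays were spread more widely, with an SD of 0.20 against 0.10, yet the lowest vehicle array was 0.57 above the highest menthol array. CASP10 fell by 0.86 ± 0.11 (SE, n = 3 per group; adjusted p = 0.00115). Of all genes 150 fell further than CASP10, and 8 of these were among the 4601 genes of its own brightness group. The fall held when each array was left out in turn, with an adjusted p of at most 0.00660 over all alternatives tried. With a pseudocount of 16, which shrinks the changes of dim genes, the log2 change of CASP10 was -0.50.

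CASP9 (probeset 7912646), activated on the apoptosome, read 7.31, 7.29 and 7.17 with vehicle and 7.72, 7.67 and 7.50 with menthol. The third array of each group was the lowest, and the groups stayed 0.19 apart. CASP9 rose by 0.38 ± 0.08 (SE, n = 3 per group; adjusted p = 0.0104). CASP2 (probeset 8136869), the PIDDosome caspase, read 8.55, 8.56 and 8.49 with vehicle and 8.83, 8.83 and 8.98 with menthol. Each menthol array exceeded each vehicle array by at least 0.27. CASP2 rose by 0.35 ± 0.07 (adjusted p = 0.00725).

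The executioner CASP6 (probeset 8102311), known for cutting lamin A, read 7.42, 7.52 and 7.44 with vehicle and 7.90, 7.84 and 7.77 with menthol. The groups were 0.25 apart at their nearest. CASP6 rose by 0.38 ± 0.07 (SE, n = 3 per group; adjusted p = 0.00467).

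Of the inflammatory caspases, CASP4 (probeset 7951372), an intracellular sensor of lipopolysaccharide, read 7.27, 7.34 and 7.53 with vehicle and 7.90, 7.86 and 7.86 with menthol. The menthol arrays agreed within an SD of 0.02, and the vehicle arrays varied with an SD of 0.13. CASP4 had the largest rise of the 8, 0.49 ± 0.08 (SE, n = 3 per group; adjusted p = 0.00318). CASP5 (probeset 7951385), its neighbour and close relative, read 2.72, 2.59 and 2.62 with vehicle and 3.04, 3.14 and 3.09 with menthol. These are 6.04 to 8.80 units on the linear scale, near the bottom of the arrays' range, whose lowest value was 1.57. The groups were 0.31 apart, and CASP5 rose by 0.44 ± 0.07 (adjusted p = 0.00235).

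CASP1 (probeset 7951397), the protease that matures interleukin-1 beta, read 2.63, 2.94 and 2.67 with vehicle and 3.15, 3.34 and 2.94 with menthol. The second vehicle array and the third menthol array were level, 0.0012 apart, so the groups barely separated. CASP1 rose by 0.40 ± 0.12 (SE, n = 3 per group; adjusted p = 0.0431), the weakest call of the 8. The call was lost when vehicle replicate 1, vehicle replicate 3, menthol replicate 1 or menthol replicate 2 was omitted (adjusted p = 0.0960 to 0.127). It was also lost under quantile normalization (0.112), cyclic loess normalization (0.112), equal array medians (0.0515), a pseudocount of 16 (0.110) and with all probesets tested (0.0904). CASP5 missed the threshold with the pseudocount of 16 only (adjusted p = 0.0514), where its log2 change shrank to 0.14. Its change was 0.33 under cyclic loess and 0.34 under quantile normalization.

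Dim and bright genes shifted differently in these arrays, so each member was read against its own brightness group. CASP1, CASP5 and CASP10 lay in the dimmest group, where the median log2 fold change was 0.10, 10.3% of genes were higher and 1.91% were lower past the threshold. CASP10 fell in a group whose median change was upward, and CASP1 and CASP5 rose in it. The vehicle mean of CASP10, 4.94, was above this group's limit of 4.75, so its own fall helped to place it there. Shares among genes of like vehicle level were not computed. CASP4, CASP6, CASP8 and CASP9 lay in the third group, with a median of -0.01, 17.5% higher and 20.2% lower. CASP2 lay in the brightest group, with a median of -0.05, 17.2% higher and 26.9% lower. The part of this shift in the changes of the dim members was not tested beyond the normalizations named here.

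**Figure D2:**
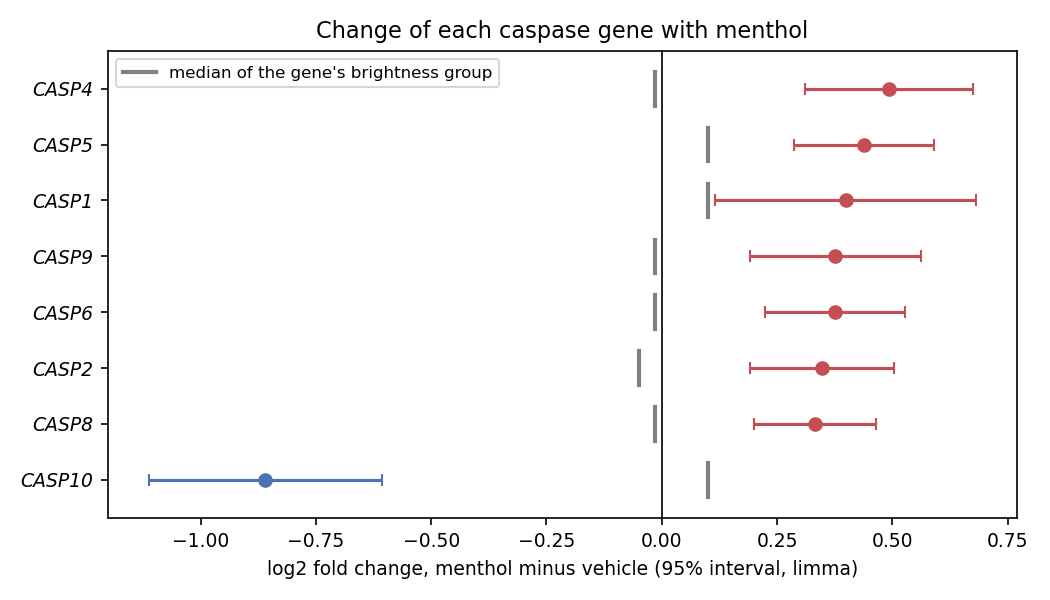
Log2 fold change of each caspase gene, menthol minus vehicle (x axis), with its 95% interval from limma, and the median change of all genes in the same brightness group (grey ticks). The intervals of the 7 higher genes overlap each other and lie above 0, from 0.12 to 0.68 in CASP1, and that of CASP10 runs from -1.11 to -0.61.

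**Figure D3:**
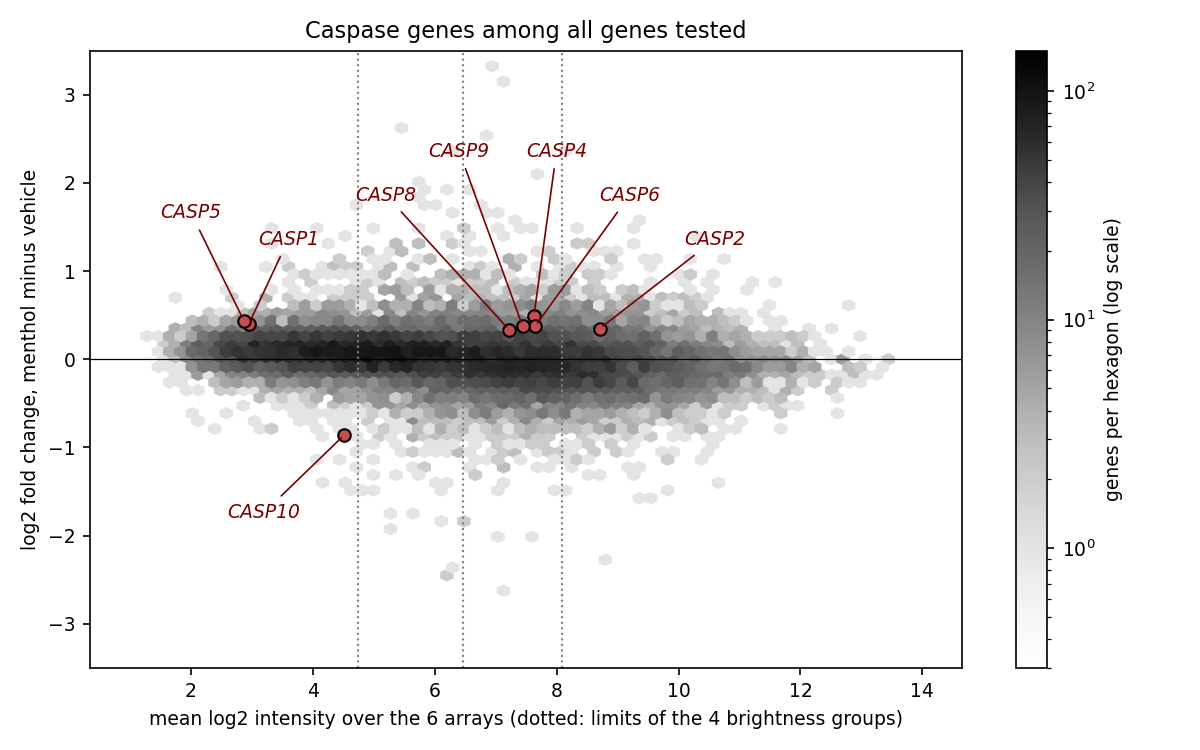
Log2 fold change, menthol minus vehicle (y axis), against mean log2 intensity over the 6 arrays (x axis) for 18404 genes, shaded by the number of genes on a log scale, with the 8 caspase genes as red points and the limits of the 4 brightness groups dotted. CASP10 lies at -0.86 below a dim region with few falling genes, and its own fall lowered its mean. The other 7 lie between 0.33 and 0.49.

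CASP8, CASP10 and CFLAR lie next to each other on chromosome 2, with only pseudogenes and a non-coding RNA listed between them. CFLAR encodes a caspase-8-like protein without protease activity that controls caspase-8 on death receptors. CFLAR rose by 0.41 ± 0.08 (SE, n = 3 per group; adjusted p = 0.00701), from 6.33 ± 0.11 (SD) to 6.74 ± 0.09, so the genes on both sides of CASP10 were higher while CASP10 was lower. The log2 difference of CASP10 minus CASP8 within each array was -2.21, -2.13 and -2.00 with vehicle and -3.33, -3.52 and -3.06 with menthol. It was lower in all 3 menthol arrays, by 1.19, with an exact two-sided permutation p of 0.1, the smallest that 3 against 3 arrays allow (0.3 adjusted over 3 such pairs).

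The inflammatory caspase genes form a second cluster, on chromosome 11. In chromosome order, the measured genes were CASP12 at 0.27 ± 0.07 (SE, n = 3 per group), CASP4, CASP5, CASP1, CARD16 at 0.41 ± 0.09, CARD17P at 0.36 ± 0.15 and CARD18 at 0.19 ± 0.17. Human CASP12 is mostly a pseudogene, and CARD16 and CARD18 encode short proteins that resemble the CASP1 recruitment domain. The first 5 genes of this order passed the threshold, all higher. All of them except CASP4 lay in the dimmest brightness group, as did CARD18. In that group the median change was 0.10, and 10.3% of genes were higher past the threshold. Under quantile normalization the rise of CASP12 was 0.165 and that of CASP1 was 0.297. The part of the group's shift in these rises was not tested beyond the normalizations named here. CARD16, like CASP1 and CASP5, did not pass with a pseudocount of 16 (adjusted p = 0.0780). CARD17P (adjusted p = 0.108) and CARD18 (adjusted p = 0.450), both chosen after their values were seen, did not pass. CARD17P passed with array weights and without menthol replicate 3. CASP12 missed the threshold without any 1 array other than menthol replicate 3 (adjusted p = 0.0537 to 0.0805), under quantile and cyclic loess normalization, with a trended prior, with all probesets tested and with the pseudocount of 16 (0.0546 to 0.180). CASP1, CARD16 and CARD17P are near-identical in part, so their separate values are uncertain. The within-array difference CASP4 minus CASP1 changed by 0.09 (exact two-sided permutation p = 0.6, 0.8 adjusted over the 3 pairs). That of CASP4 minus CASP5 changed by 0.05 (exact permutation p = 0.8, adjusted 0.8), and in both pairs the groups overlapped. Omitting single arrays moved these differences between -0.02 and 0.21 for CASP4 minus CASP1 and between -0.04 and 0.14 for CASP4 minus CASP5, so neither has a settled sign. With a pseudocount of 16, which shrinks changes of the dim CASP1 and CASP5 most, they were 0.32 and 0.32, and under quantile normalization 0.22 and 0.18.

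**Figure D4:**
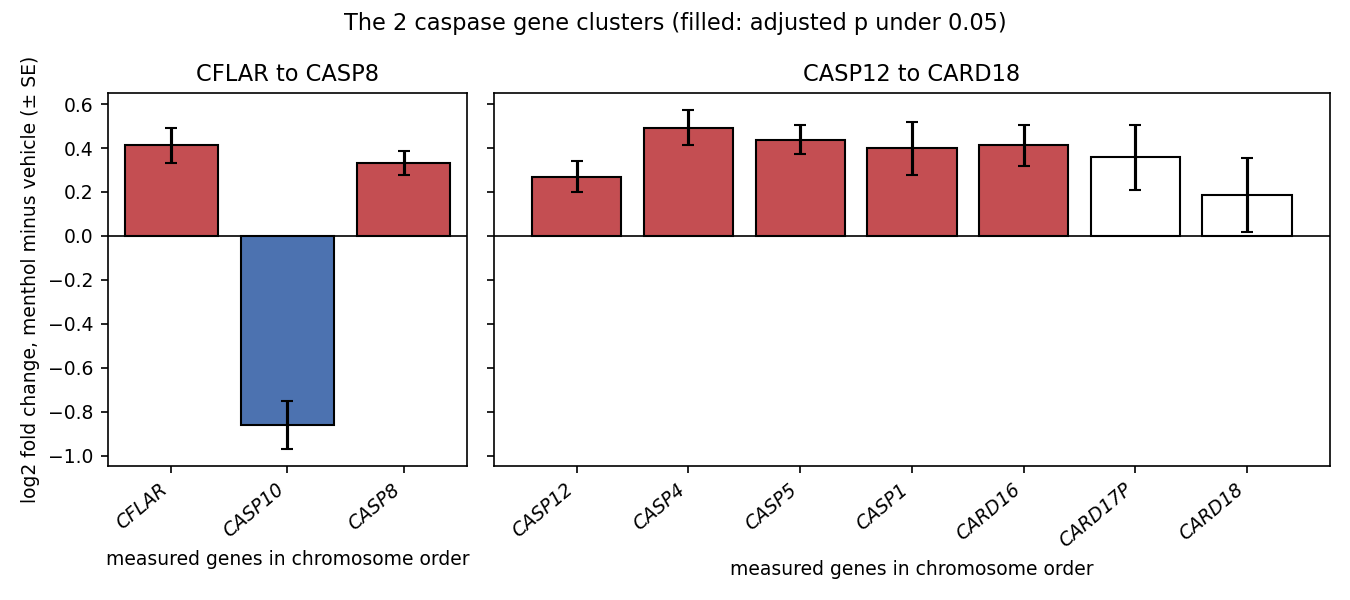
Log2 fold change, menthol minus vehicle, with SE (y axis) for the measured genes of the chromosome 2 cluster (left) and the chromosome 11 cluster (right) in chromosome order; filled bars passed the threshold. CASP10 at -0.86 stands between CFLAR at 0.41 and CASP8 at 0.33, and all 7 measured genes of the chromosome 11 cluster have positive values.

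Partners and targets of the caspases were read from 7 lists, with 70 of 80 listed genes measured. Of the 70, 13 were higher, 15 lower and 42 did not pass, with a median of -0.01, so these genes moved both ways. Of all genes 29.1% passed, 14.6% higher and 14.5% lower, and the counts of each list are to be read beside these shares. Omitting single arrays left 16 to 23 of the 70 past the threshold in place of 28. The fewest, 16, was without vehicle replicate 1, and 17 passed without menthol replicate 2. Of the other caspase genes, CASP12 rose as above and CASP14, a caspase of skin cornification, fell by 0.72 ± 0.08 (SE, n = 3 per group; adjusted p = 0.00075). CASP14 went from 6.28 ± 0.13 (SD) to 5.56 ± 0.06. Of 5 caspase-like and CARD-only regulators, CFLAR and CARD16 rose and 0 fell (median 0.19).

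Upstream of caspase-8 and caspase-10, 3 of 10 death receptors and ligands fell and 1 rose (median -0.02), where 14.5% of all genes were lower and 14.6% higher. TNFRSF1A, the main TNF receptor, fell by 0.48 ± 0.07 (SE, n = 3 per group; adjusted p = 0.00272), TNFRSF21, also called DR6, by 0.46 ± 0.06 and the TRAIL receptor TNFRSF10B by 0.41 ± 0.06. FAS, the Fas ligand receptor, rose by 0.36 ± 0.11 (adjusted p = 0.0439). The FAS call was lost without each of the arrays other than vehicle replicate 3 (adjusted p = 0.0597 to 0.130). With all 6 arrays it was also lost under quantile normalization, equal array medians and cyclic loess normalization (0.0526 to 0.0551) and with all probesets tested (0.0909). The 3 falls held with each array left out. All 3 of these receptor genes lay in the brightest group, where 26.9% of genes were lower past the threshold.

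In adaptors and activation platforms 4 of 14 genes rose and 2 fell (median 0.13). The inflammasome adaptor PYCARD rose by 0.45 ± 0.11 (SE, n = 3 per group; adjusted p = 0.0199), the TNF receptor adaptor TRADD by 0.35 ± 0.09 and NOD2, a sensor of bacterial cell walls, by 0.31 ± 0.08. FADD, chosen after its values were seen, rose by 0.27 ± 0.06 (adjusted p = 0.0118), from 9.22 ± 0.03 (SD) to 9.49 ± 0.05. CYCS, cytochrome c of the apoptosome, fell by 0.38 ± 0.06 (adjusted p = 0.00313) and PIDD1, the platform of caspase-2, by 0.30 ± 0.09 (adjusted p = 0.0377). APAF1, also chosen after its values were seen, was at -0.20 ± 0.06 and did not pass (adjusted p = 0.0523). Thus CASP9 and CASP2 were higher while CYCS and PIDD1 were lower. PYCARD was not called without menthol replicate 1 (adjusted p = 0.0579), nor TRADD when either vehicle replicate 1, vehicle replicate 3 or menthol replicate 3 was omitted (up to 0.0583). NOD2 lost its call under quantile and cyclic loess normalization (0.0872 and 0.0865), with all probesets tested, with a trended prior and on omission of vehicle replicate 1, vehicle replicate 2 or menthol replicate 2 (up to 0.0801), and PIDD1 on that of vehicle replicate 1, vehicle replicate 3, menthol replicate 2 or menthol replicate 3 (up to 0.115). PYCARD and PIDD1 also lost theirs with all probesets tested. Without vehicle replicate 1, 2 platform genes rose. Only 1 fell when vehicle replicate 1, vehicle replicate 3, menthol replicate 2 or menthol replicate 3 was omitted.

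Of 10 IAP inhibitors and their antagonists 1 rose and 1 fell (median 0.06). BIRC2, a ubiquitin ligase of the TNF receptor complex, rose by 0.40 ± 0.08 (SE, n = 3 per group; adjusted p = 0.00627). BIRC5, which encodes survivin, fell by 0.23 ± 0.07 (adjusted p = 0.0414), a call lost without each of the arrays other than menthol replicate 1 (0.0852 to 0.112), under quantile and cyclic loess normalization, with the replicate number as a block, with all probesets tested and with its dimmest probeset. XIAP, the direct inhibitor of caspase-9, chosen after its values were seen, was at 0.13 ± 0.11 (95% interval -0.12 to 0.39) and did not pass.

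Among 23 substrates and effectors 3 rose and 6 fell (median -0.09), where 14.6% of all genes were higher and 14.5% lower. GSDME, a pore-forming gasdermin, rose by 0.54 ± 0.07 (SE, n = 3 per group; adjusted p = 0.00159), from 7.81 ± 0.09 (SD) to 8.35 ± 0.07. MLKL, the membrane-breaking protein of necroptosis, a death pathway that caspase-8 holds in check, rose by 0.48 ± 0.07 (adjusted p = 0.00264), and IL18 by 0.28 ± 0.07 (adjusted p = 0.0162). The channel PANX1, opened by caspase cleavage, fell by 0.37 ± 0.06 (adjusted p = 0.00423) and DFFA, the inhibitor of the DNA-cutting nuclease DFFB, by 0.26 ± 0.06 (adjusted p = 0.0139). The other 4 that fell, named after their values were seen, were PRKCD, ACIN1, LMNB1 and PARP1, at -0.25, -0.25, -0.23 and -0.22. IL1B and GSDMD, the classic targets of caspase-1, likewise chosen after, were at -0.08 ± 0.07 and -0.18 ± 0.08 and did not pass (adjusted p = 0.480 and 0.117). Thus IL18 passed and IL1B did not, and the difference between them was not tested. Of the 6 that fell, all except ACIN1 lay in the brightest group, where 26.9% of genes were lower past the threshold. ACIN1 lay in the third group, where 20.2% were. With each array left out, 2 to 6 substrates fell. The count was 2 when vehicle replicate 2 was omitted, and 3 when vehicle replicate 1, vehicle replicate 3, menthol replicate 1 or menthol replicate 2 was. IL18 was not called without vehicle replicate 1 or menthol replicate 2 (adjusted p = 0.0636 and 0.0521) and DFFA without vehicle replicate 1 (0.0555). PRKCD was not called without vehicle replicate 2 (0.0556), ACIN1 without 4 of the arrays (up to 0.124), and LMNB1 and PARP1 without 5 (up to 0.0982 and 0.118). With all probesets tested ACIN1, LMNB1 and PARP1 lost their calls, and LMNB1 and PARP1 also did under cyclic loess normalization and with the replicate number as a block, and PARP1 under quantile normalization.

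**Figure D5:**
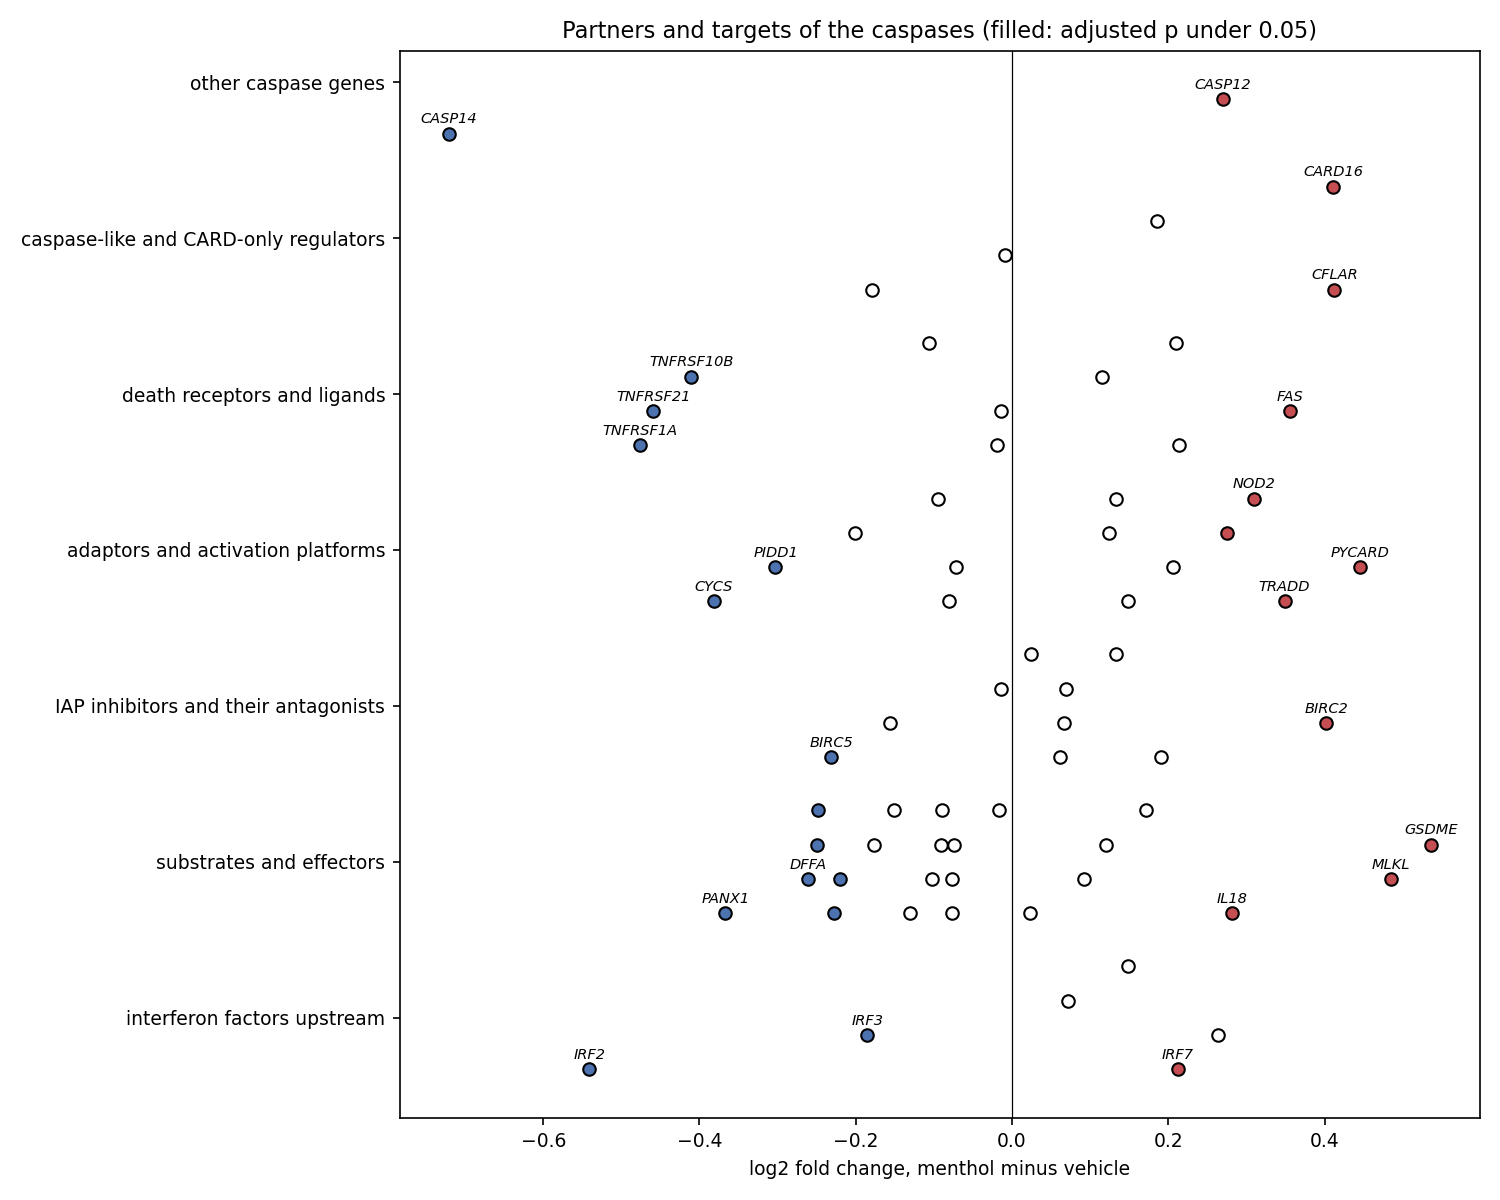
Log2 fold change, menthol minus vehicle (x axis), of the 70 measured partners and targets by list (rows; height within a row has no meaning); filled points passed the threshold, red higher and blue lower. Each list except the caspase-like regulators has filled points on both sides of 0.

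Of 6 interferon factors upstream, 1 rose and 2 fell (median 0.11). IRF2, a factor that binds interferon response elements, fell by 0.54 ± 0.07 (SE, n = 3 per group; adjusted p = 0.00116), from 7.60 ± 0.08 (SD) to 7.06 ± 0.06. IRF3 was at -0.19 ± 0.06 (adjusted p = 0.0478) and IRF7 at 0.21 ± 0.06 (adjusted p = 0.0338), and both calls were lost without any 1 of the 6 arrays (0.0501 to 0.143 for IRF3, 0.0584 to 0.106 for IRF7), with all probesets tested and with the replicate number as a block. IRF3 was also not called under quantile and cyclic loess normalization and with its dimmest probeset.

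Markers of other cell types moved too. Of 7 measured leukocyte markers 1 rose with menthol and 0 fell, and 5 lay in the dimmest group. The summed linear intensity of the 7 was 563 to 596 with vehicle and 660 to 718 with menthol. CD68, the 1 that rose, was at 8.92 and 9.21, and it made up most of the sum, with 468 to 513 units with vehicle and 570 to 607 with menthol. The other 6 summed to 83.2 to 101 and 90.6 to 111 units, ranges that overlap, with LYZ at log2 2.82 and 2.77 and PTPRC at the levels given above. Of 6 endothelial markers 3 rose and 0 fell, led by the VEGF receptor KDR at 1.42 ± 0.09 (SE, n = 3 per group; adjusted p = 6.5e-05), and their sum was 201 to 210 with vehicle and 311 to 330 with menthol. KDR went from log2 5.52 to 6.94, while CDH5, VWF and TEK did not pass, so this sum is not a shift of every marker. Of 8 fibroblast markers 2 rose and 2 fell, led by the PDGF receptor PDGFRA at -1.99 ± 0.14 (adjusted p = 9.9e-05), and their sum was 686 to 710 with vehicle and 444 to 463 with menthol. PDGFRA went from log2 8.07 to 6.08, while COL1A1, LUM, PDGFRB and THY1 did not pass. The part of these marker changes, epithelial ones included, in the values of the caspase genes was not tested.

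The genes whose centred values over the 6 arrays lay nearest to each member were found by the root mean square difference in log2 units, as a description. CASP10 was nearest to CCNB2, a mitotic cyclin, at 0.07, then AMN1 and PLA2G4A, the cytosolic phospholipase A2, both also at 0.07. CCNB2 was itself at -0.85 ± 0.08 (SE, n = 3 per group). CASP8 was nearest to SNAP29, NME6 and PKP1, CASP6 to MSRB1, PARVA and IKZF1, and CASP9 to KLHL28, ICAM3 and EPS8L1. CASP2 was nearest to RASAL2, DCAF6 and SLC35D4, CASP4 to UFM1, HEBP2 and CALU, and CASP5 to ZNF667, ITGB7 and SPR. CASP1 was nearest to GJB6, GOLT1A and MS4A12, of which none passed the threshold (adjusted p = 0.0562 to 0.0692), although GJB6 and GOLT1A passed without vehicle replicate 2 and all 3 without menthol replicate 3. KLHL28 lost its call on omission of vehicle replicate 2, vehicle replicate 3, menthol replicate 1 or menthol replicate 2 (up to 0.0667), and EPS8L1 without vehicle replicate 3 or menthol replicate 2 (up to 0.0545). IKZF1 was not called with a pseudocount of 16, nor UFM1 with its dimmest probeset.

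Among measured genes within 2 places of a member in the gene table, outside the members, CFLAR and the chromosome 11 cluster, DNAJC16 beside CASP9 was at 0.65 ± 0.08 (SE, n = 3 per group; adjusted p = 0.00104) and CELA2B at 0.19 ± 0.12 (adjusted p = 0.273). Beside CASP2, GSTK1 was at 0.33 ± 0.06 (adjusted p = 0.00671) and TMEM139 at 0.44 ± 0.13 (adjusted p = 0.0372), the second lost without each of the arrays other than vehicle replicate 1 (0.0514 to 0.105), with array weights, under quantile and cyclic loess normalization and with all probesets tested. Beside CASP8, TRAK2 was at 0.32 ± 0.06 (adjusted p = 0.00584) and FLACC1 at 0.28 ± 0.12, which missed the threshold (adjusted p = 0.115) but passed when vehicle replicate 2 was omitted. MCUB beside CASP6 was at -0.23 ± 0.09 and did not pass (adjusted p = 0.0947).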

How the data were processed

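RNA of 6 PC-3 samples was read on Affymetrix whole-transcript arrays, from 300 ng of total RNA each per the labels. The authors deposited 1 table of intensity values for 32321 probesets, made with RMA (background correction, quantile normalization and probeset summary) per the submitters' processing notes. The deposited intensity values ran from 1.57 to 14835 and so were linear, and log2 was taken first. The table has no detection calls, so a dim value is not called absent. Of the probesets 19158 had 1 gene symbol, 1388 several and 11775 none here, and for each of 18404 genes the probeset with the highest mean was kept. A GRCh38.p14 gene table held the Entrez identifiers of 19128 of the 19158 probesets.

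Each gene was fitted by lmFit and eBayes of limma 3.58.1 (R 4.3.3) with a term for group. P-values are two-sided and Benjamini-Hochberg adjusted over 18404 genes, with a threshold of 0.05. A change is the menthol mean minus the vehicle mean in log2 units. The fit was tested on simulated data. Differences between pairs of caspase genes used exact permutation tests (scipy 1.17.1). Sequences come from RefSeq (GRCh38.p14). The members, lists and tests were chosen with earlier results of these data known. Named genes are the 8 members, up to 5 called genes of each list by size of change, the 3 nearest patterns per member and neighbours within 2 places. Cell type markers come from 5 marker lists, and those named singly were chosen after their values were seen. Other genes outside this rule are marked as chosen after the fact. Alternatives were other normalizations, a filter on dim genes, other uses of probesets, a trended robust prior (statmod 1.5.0), array weights, a replicate block, a pseudocount of 16, a threshold of 0.01 and each array left out.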

Additional observations from a re-analysis of the deposited data

How the results depend on the processing

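Of the 8 caspase genes, CASP2, CASP4, CASP6, CASP8 and CASP10 kept their direction and their call under all alternatives in which they were tested, CASP5 in all but the pseudocount of 16, CASP9 in all but the threshold of 0.01 (adjusted p = 0.0104), and CASP1 kept its direction but lost its call in 10 of 17. The log2 change of CASP10 ranged from -0.96 to -0.50, that of CASP1 from 0.13 to 0.50, that of CASP5 from 0.14 to 0.48 and that of CASP4 from 0.44 to 0.57. Leaving out the dimmest brightness group leaves 5 members tested, all 5 called and 0 of them lower, because CASP1, CASP5 and CASP10 are then not tested. With the threshold of 0.01, 2841 of all genes, 6 members and 11 of the 70 partners and targets passed. With all 32321 probesets tested, 17 of the 70 passed. Omitting single arrays left 3839 to 4828 of all genes, 7 to 8 members, 6 to 7 members higher, 1 member lower and 16 to 23 of the 70 past the threshold. Of 65 other named genes, 56 were tested under all 18 settings, and 35 of these 56 kept their side of the threshold throughout. The other 9 are dim and were tested under 17, and 1 of the 9 did so. None changed direction where tested. Omitting single arrays, an alternative chosen after seeing the data for the pair differences, gave changes of -1.31 to -1.08 for CASP10 minus CASP8, -0.02 to 0.21 for CASP4 minus CASP1 (-0.024 without vehicle replicate 2 and -0.0033 without menthol replicate 3) and -0.04 to 0.14 for CASP4 minus CASP5 (-0.038 without vehicle replicate 1). The scaling alternatives moved the median of all genes by at most 0.03.

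The replicate numbers are shared by the groups, but the deviations of same-numbered arrays from their group means correlated little (0.0065, -0.0072 and 0.09). Not every array correlated best with its own number, although the value for replicate 3 was the highest of all pairings. With 3 arrays per group this check is weak. With the replicate block, 4868 genes passed in place of 5353, and all 8 caspase genes and 23 of the 70 partners and targets were called. The SE of CASP1 was then 0.08 in place of 0.12, and its adjusted p in limma 0.0161 in place of 0.0431. Nothing in the table gives the signal over background of a probeset, which limits what can be said of CASP1 and CASP5.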
